A study of Ursus arctos with 12 samples.

Results

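The adiponectin-related genes examined here were 10 of the 30249 genes counted in the muscles of the brown bear. They were 7 genes of the C1q and TNF related protein family (C1QTNF1, C1QTNF2, C1QTNF3, C1QTNF4, C1QTNF7, C1QTNF12 and LOC113249916), the adiponectin receptors ADIPOR1 and ADIPOR2, and CDH13. They were chosen by name, with winter against summer values of these same libraries already known, so their season differences are a description and carry no p value. LOC113249916 bears only a locus number in the counts, and a later RefSeq gene table of the brown bear (assembly UrsArc2.0) gives the same gene number the symbol C1QTNF6, so it is called C1QTNF6 (LOC113249916) here.

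The study asked which genes change in a muscle that is spared during months of inactivity and fasting. Biopsies of the vastus lateralis, a thigh muscle, came from 6 free-ranging brown bears (Ursus arctos) aged 2 to 3 years. Each bear was sampled during winter hibernation and captured again in the summer active period, so each season had 6 libraries, 1 per bear. The labels give no genotype or treatment, and season, feeding and activity changed together and cannot be told apart.

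Adiponectin is a hormone secreted by fat cells, and the C1QTNF proteins are its relatives: secreted proteins that carry the same globular C1q domain, in most of them behind a collagen-like stretch through which they assemble into trimers and larger complexes. Adiponectin acts on muscle through ADIPOR1 and ADIPOR2, membrane proteins linked to the adaptor APPL1, to the energy sensor AMPK and to the transcription factor PPARα, which favour fatty acid oxidation. CDH13 (T-cadherin) is a cadherin without an intracellular part that binds the large forms of adiponectin at the surface of endothelial and muscle cells.

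Between 16742406 and 32140160 reads per library fell on genes, and 17290 genes had at least 30 reads over the 12 libraries and were tested by edgeR. At an adjusted p below 0.05, 39.5% of them were called, 19.6% higher and 19.9% lower in winter. The tissue label held, since 7 muscle fibre markers with reads summed to 104306 to 179713 CPM (reads per 1000000 reads on genes, scaled by edgeR's TMM factors) in summer and 110268 to 145760 CPM in winter. One winter library stood apart: markers of nerve and Schwann cells summed to 284 CPM in winter bear 1509 against 7.39 to 26.3 CPM in the other winter libraries and 18.8 to 45.0 CPM in summer. Winter bears 1509 and 1511 also held the most fibroblast marker RNA, 1694 and 1942 CPM against 313 to 698 CPM in the other 4 winter bears. Fitted differences of the ligand genes are therefore given with and without these bears. Other values given only once can also depend on them.

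Of the 10 genes, 9 were tested and 1, C1QTNF12, had no read in any of the 12 libraries. The picture was uneven: 5 of the 6 detected ligand genes were lower in winter in 6 of 6 bears, C1QTNF4 was higher in 6 of 6 bears, and the fitted differences of the 2 receptors and CDH13 were between −0.26 and 0.31 on the log2 scale. By edgeR 2 of the 9 were called higher (C1QTNF4 and ADIPOR1) and 5 lower (C1QTNF1, C1QTNF2, C1QTNF3, C1QTNF6 (LOC113249916) and C1QTNF7), where 19.6% and 19.9% of all genes were called in these directions. The summer and winter libraries did not overlap for 5 of the 9, against 17.3% of all genes tested. Winter lay above for 1 of them, C1QTNF4, and below for the other 4, where 9.12% and 8.21% of all genes did so. The median log2 fold change was −1.29 over the 9 genes, −2.06 over the 6 ligands and −0.00 over all genes tested. Nothing is read from these shares, since the same comparison was known when the genes were chosen. In bulk muscle, fewer cells of a type and less RNA per cell cannot be told apart.

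**Figure D1:**
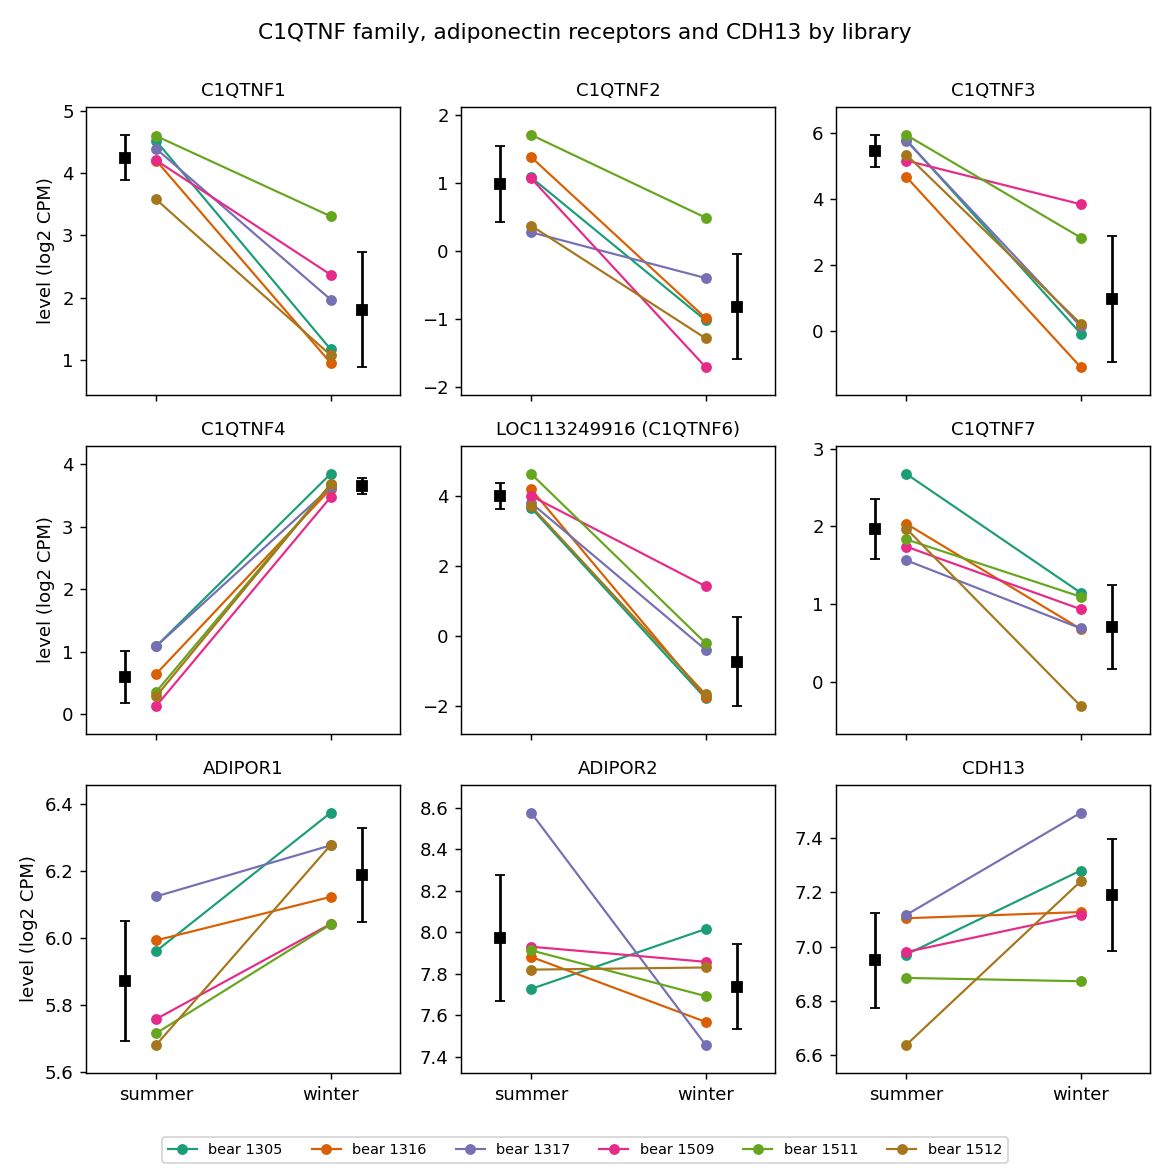
Level of each of the 9 detected genes in log2 CPM (y axis, a separate scale per gene) in summer and winter, with a line for each of 6 bears and black squares for the mean ± SD over bears. C1QTNF4 was higher in winter in 6 of 6 bears, 5 other ligand genes were lower in 6 of 6, and winter bears 1509 and 1511 lay above the other 4 for C1QTNF3.

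C1QTNF3 (CTRP3), a secreted protein of cartilage, connective tissue and fat, went from 25.6, 47.9 and 61.9 CPM (lowest, median and highest bear) in summer to 0.378, 1.04 and 14.3 CPM in winter. Every winter library lay below every summer library, but the winter libraries were far from alike. Winter bears 1509 and 1511 stood at 14.3 and 7.04 CPM, while the other 4 lay between 0.378 and 1.07 CPM, from 9 to 33 reads each. The SD of log2 CPM was accordingly 0.48 in summer and 1.92 in winter (n = 6 each). The fitted log2 fold change of winter over summer was −3.52 (SE 0.71), an 11.5-fold lower level. It was −4.59 without bear 1509, −3.65 without bear 1511 and −5.72 without both. In single bears the difference ran from −1.33, in bear 1509, to −5.89 on the log2 scale.

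C1QTNF6 (LOC113249916), a less studied relative, had the lowest fitted value of the 9 genes over the 12 libraries, though not without bears 1509 and 1511. It was read at 12.6, 14.9 and 24.7 CPM (lowest, median and highest) in summer and at 0.204, 0.452 and 2.59 CPM in winter. The seasons did not overlap, and winter bear 1509 again was the highest of its season, with 47 reads where the other winter libraries had 5 to 13. Its log2 fold change was −4.46 (SE 0.53), 22.0-fold lower. It was −5.37 without bear 1509 and −5.51 without bears 1509 and 1511, where C1QTNF3 stood at −5.72. The bears differed by −5.95 to −2.58 between seasons, and 11 of the genes tested had a lower fitted value.

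C1QTNF1 (CTRP1), a protein of vessel walls and fat that has been tied to glucose and fatty acid use, stood at 11.9, 19.6 and 24.1 CPM in summer and at 1.85, 3.00 and 9.81 CPM in winter. No winter library reached the lowest summer one, and the highest winter value was that of bear 1511. Its log2 fold change was −2.25 (SE 0.37), and −2.91 without bears 1509 and 1511. Bear by bear the difference lay between −3.35 and −1.29.

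C1QTNF2 (CTRP2) was a gene of few reads, 26 to 80 per library in summer and 4 to 22 in winter. The levels of C1QTNF2, which has been linked to lipid handling, were 1.13, 2.03 and 3.19 CPM in summer and 0.221, 0.414 and 1.32 CPM in winter. The seasons overlapped because winter bear 1511, at 1.32 CPM, exceeded the lowest summer bears, though each bear was lower in winter than in its own summer. Its log2 fold change was −1.87 (SE 0.41), with −2.78 to −0.67 in single bears, and −1.93 without bears 1509 and 1511.

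C1QTNF7 (CTRP7) had the smallest difference of the 5 lower ligands. Its levels were 2.87, 3.65 and 6.30 CPM in summer and 0.716, 1.67 and 2.12 CPM in winter, with no overlap. Winter bear 1512 was the lowest, at 0.716 CPM, while the other 5 winter bears stayed near each other at 1.51 to 2.12 CPM. The fit gave −1.29 (SE 0.26), and −1.54 without bears 1509 and 1511. Bears differed by −2.29 to −0.74.

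C1QTNF4 (CTRP4) departs from the family plan: it carries a pair of C1q domains and no collagen-like stretch, and it is best known from the brain, where it acts on food intake. Its levels were 1.01, 1.34 and 2.04 CPM in summer, from 23 to 56 reads, and 11.04, 12.5 and 14.3 CPM in winter, from 200 to 391 reads. Here the winter libraries were the tight group, with an SD of log2 CPM of 0.12 against 0.41 in summer. Each winter library was above each summer one, and the bears that stood apart for C1QTNF3 did not stand apart for C1QTNF4. The log2 fold change was 3.07 (SE 0.19), an 8.42-fold higher level, with 2.55 to 3.39 in single bears. Without bears 1509 and 1511 it was 2.94.

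C1QTNF12 (adipolin), an adipokine described as a glucose-lowering relative of adiponectin, had 0 reads in 12 of 12 libraries. A count of 0 allows up to 3 reads in a library, which is 0.0933 to 0.179 CPM before TMM scaling and covers counting error only. Its season difference therefore was not detectable at this depth.

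**Figure D2:**
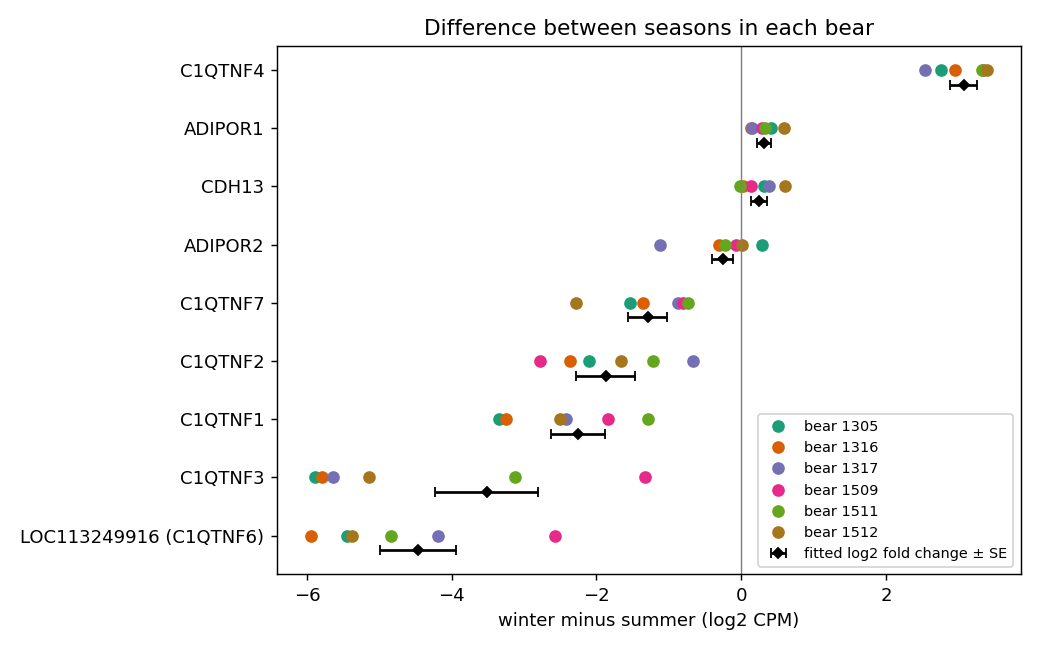
Winter minus summer in log2 CPM (x axis) for each of the 9 detected genes, with 1 coloured point per bear and a black diamond for the fitted log2 fold change ± SE. C1QTNF4 lies between 2.55 and 3.39 in all 6 bears, the receptors and CDH13 lie between −1.12 and 0.60, and the points of C1QTNF3 run from −5.89 to −1.33.

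The make-up of the ligand reads differed between the seasons. Among the 10 genes examined, the 6 detected ligand genes together reached 70.1 to 119 CPM in summer (median 86.1) and 16.5 to 35.0 CPM in winter (median 20.1), without overlap. These totals and the shares below leave out 2 detected relatives. C1QTNF9 had a median of 12.3 CPM in summer and 7.01 CPM in winter, and C1QTNF5 one of 5.24 and 4.22 CPM. With them counted, each share would be lower. Winter bears 1509 and 1511 had the highest winter totals, 35.0 and 33.8 CPM, against 16.5 to 20.1 CPM in the other winter bears. C1QTNF3 gave 36.5 to 57.4% of the ligand reads in summer (median 53.6%) and 2.30 to 40.8% in winter (median 5.67%), where bear 1509 was the highest. C1QTNF4 gave 1.01 to 2.13% in summer and 31.5 to 74.5% in winter (median 66.4%). Winter bears 1509 and 1511 had the lowest winter shares of C1QTNF4, and the seasons did not overlap. These shares were not corrected for transcript length, so they compare each gene with itself across libraries.

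**Figure D3:**
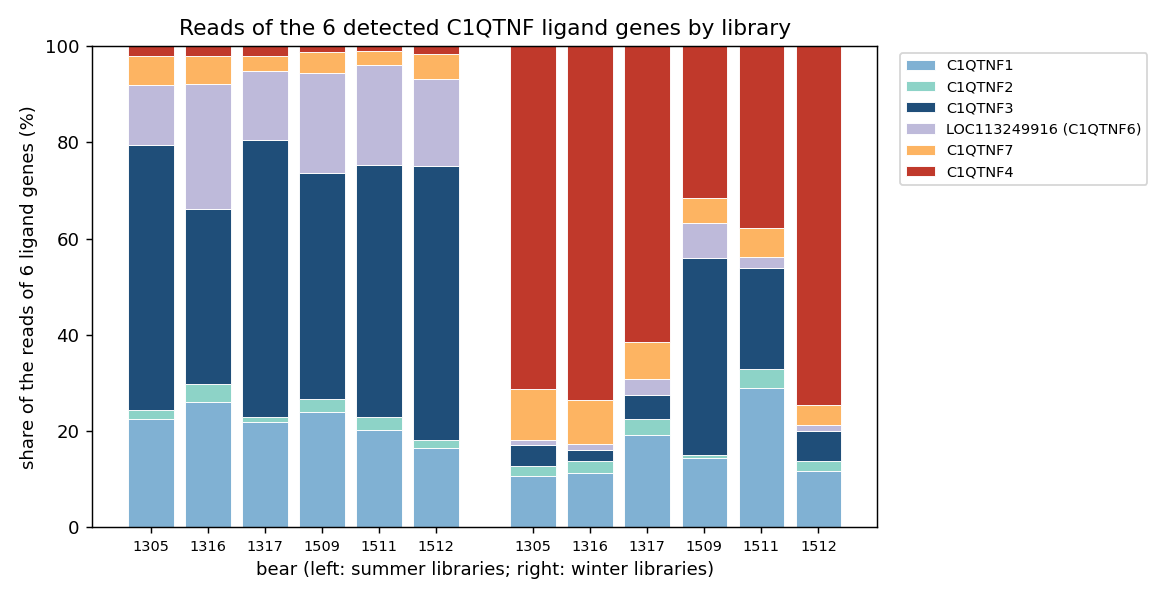
Share of the reads of the 6 detected ligand genes examined (y axis, percent) held by each gene, in 6 summer libraries (left) and 6 winter libraries (right). C1QTNF5 and C1QTNF9 are not included. The share of C1QTNF4 is 1.01 to 2.13% in summer and 31.5 to 74.5% in winter, lowest in winter bears 1509 and 1511.

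The fitted differences of the receptors were smaller in size than those of the 6 ligand genes above. C1QTNF5, a detected relative outside the 10 genes, stood at −0.26 (SE 0.25), in the range of the receptors. ADIPOR1, described as the main adiponectin receptor of muscle, was read at 51.2, 58.1 and 69.7 CPM in summer and at 65.8, 73.6 and 82.9 CPM in winter. The seasons overlapped at summer bear 1317, the highest of its season, but each of 6 bears was higher in winter than in its own summer, by 0.13 to 0.60. The log2 fold change was 0.31 (SE 0.10), and ADIPOR1 no longer passed the call without bear 1305, without bear 1512, without bears 1509 and 1511 together, or with library totals in place of TMM scaling.

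ADIPOR2, the receptor more often described in liver, stood at 212, 238 and 381 CPM in summer and at 176, 217 and 259 CPM in winter. The seasons overlapped, and the highest summer value, that of bear 1317, lay far above the other 5. In winter 4 of 6 bears were lower, and the differences ran from −1.12 to 0.29. The log2 fold change was −0.26 (SE 0.15), or −0.05 without bear 1317, and ADIPOR2 was not called. The number of ADIPOR2 reads per ADIPOR1 read was 3.40 to 5.47 in summer (median 4.46) and 2.27 to 3.52 in winter (median 3.03), a ratio that was not corrected for transcript length.

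CDH13, the T-cadherin, stood at 99.5, 126 and 139 CPM in summer and at 117, 145 and 180 CPM in winter. The seasons overlapped, 5 of 6 bears were higher in winter, and the remaining bear, 1511, differed by −0.01. The log2 fold change was 0.24 (SE 0.11), and CDH13 was not called. Of 10 endothelial markers tested, a cell type in which CDH13 is known to be made, 6 fell and 2 rose, and their sum went from 720 to 1064 CPM in summer to 537 to 605 CPM in winter. Of all genes tested, 19.9% were called lower and 19.6% higher.

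Markers of the other cell types in a muscle biopsy, some of which are known to make C1QTNF proteins, also differed between seasons. Their counts stand beside 19.9% of all genes tested called lower and 19.6% called higher. Of 11 fibroblast markers tested, 7 fell, and their sum went from 4399 to 11632 CPM in summer to 313 to 1942 CPM in winter. Of 12 adipocyte markers tested, 5 fell and 1 rose, with sums of 1785 to 2934 CPM in summer and 741 to 1805 CPM in winter. Among 9 smooth muscle and pericyte markers 4 fell, from 526 to 665 CPM in sum to 292 to 371 CPM, and among 7 macrophage markers 5 fell, from 61.3 to 113 CPM to 38.9 to 70.0 CPM. No marker of these lists was at 0 in all libraries. Their part in the lower ligand levels was not tested.

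Within a season, some of the 9 genes varied together over bears. After the season mean of each gene was taken out, Pearson correlations of log2 CPM over 12 libraries ran from −0.46 to 0.83 for the 36 pairs, with a median of 0.06. The libraries share each bear between seasons, so these values are a description. C1QTNF3 was most like C1QTNF6 (LOC113249916) at 0.83 and C1QTNF1 at 0.78, and without bears 1509 and 1511 these became 0.10 and 0.44 over 8 libraries. ADIPOR1 stood at 0.79 with C1QTNF4 and at 0.78 with CDH13, which were 0.82 and 0.83 without these bears. C1QTNF4 and CDH13 themselves stood at 0.37, and at 0.59 without them. Some values between these genes and the lower ligands depended on these bears. When the bears were left out, C1QTNF1 went from −0.22 to 0.87 with CDH13, from −0.25 to 0.61 with ADIPOR1 and from 0.08 to 0.58 with C1QTNF4. C1QTNF6 (LOC113249916) went from −0.15 to 0.63 with CDH13. Others moved less: C1QTNF7 went from −0.11 to −0.04 with ADIPOR1 and from 0.23 to 0.18 with C1QTNF4.

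**Figure D4:**
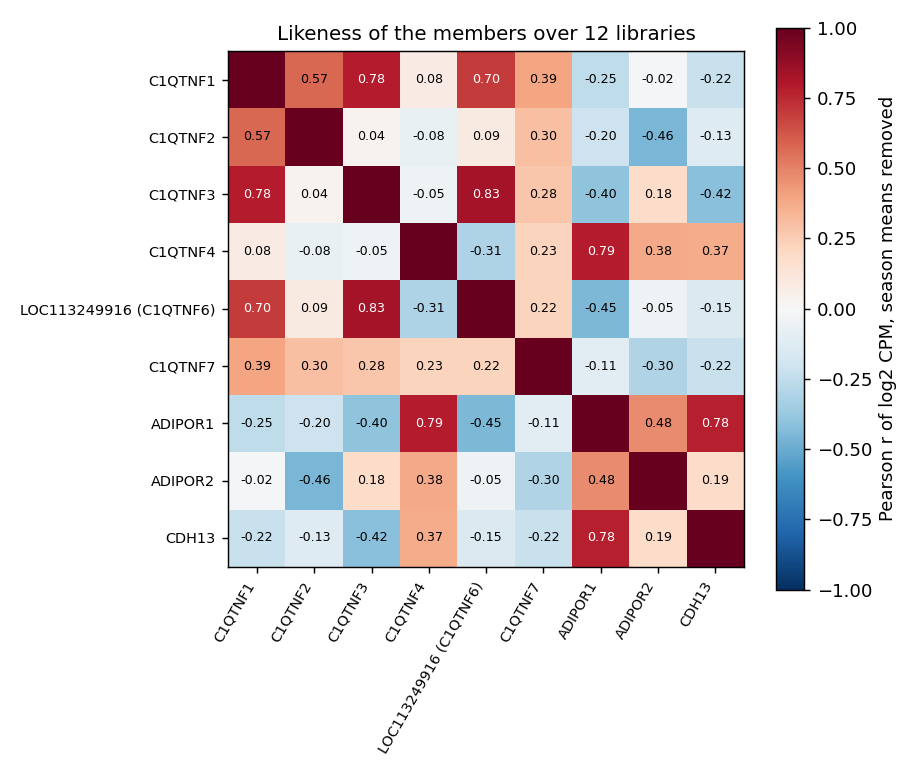
Pearson correlation of log2 CPM over 12 libraries for each pair of the 9 detected genes, after removal of season means (colour scale from −1 to 1). C1QTNF1, C1QTNF3 and C1QTNF6 (LOC113249916) form a block at 0.70 to 0.83, and ADIPOR1 stands at 0.79 with C1QTNF4 and 0.78 with CDH13.

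Among 10344 named genes whose mean level was 1 log2 CPM or more, those most like C1QTNF3 were COL3A1 (0.95), a fibrillar collagen, SGCE (0.94), a sarcoglycan, and CDH11 (0.93), a cadherin of mesenchymal cells. They were 0.74, 0.58 and 0.71 without bears 1509 and 1511. C1QTNF1 and the collagen COL1A1, a pair looked up after the values were seen, stood at 0.94, and at 0.95 without these bears. The genes most like C1QTNF4 were CA14, a carbonic anhydrase (0.88), SLC37A4, the glucose-6-phosphate transporter (0.87), and FKBP4, a chaperone partner (0.83). These values came mainly from summer, where C1QTNF4 had 23 to 56 reads. They were 0.95, 0.91 and 0.88 in the summer libraries alone and 0.41, 0.42 and 0.42 in the winter ones. All 3 genes fell in winter, with log2 fold changes of −0.61, −0.88 and −0.93, while C1QTNF4 was higher. For ADIPOR1 they were SGCD, a sarcoglycan (0.89), SYNC, an intermediate filament protein of muscle (0.87), and ACER2, an alkaline ceramidase (0.86). For CDH13 they were LIMS1, an adaptor of integrin adhesions (0.85), PAK6, a kinase (0.81), and PPFIA4, a liprin (0.81). Each gene named as most like was picked as the highest of 10344 values over only 12 libraries. Such a search can yield high values by itself, and none was tested.

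ADIPOQ, the gene of adiponectin itself, was not called. It was read at 13.1, 32.3 and 348 CPM in summer and at 5.67, 25.2 and 148 CPM in winter, and 3 of 6 bears were higher in winter. The seasons overlapped widely, and the highest summer value was that of bear 1316. By edgeR the log2 fold change was −0.86 (SE 0.86, adjusted p 0.447), and it was 0.97 without bear 1316, −1.92 without bear 1511 and −2.12 without bears 1509 and 1511 together. Its season-centred correlation with the ligand genes was between 0.16 and 0.54, and between −0.07 and 0.53 without bears 1509 and 1511.

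Among 18 further C1q domain genes tested, 2 rose and 9 fell, with a median log2 fold change of −0.89. In these directions 19.6% and 19.9% of all genes tested were called. CBLN4, a cerebellin known from synapses, rose by 2.55 (SE 0.41) on the log2 scale, from 0.130 to 0.906 CPM in summer to 1.56 to 3.32 CPM in winter. Among those that fell were COL8A1, a short-chain collagen of vessel walls (−3.13, SE 0.49), CBLN2, another cerebellin (−2.44, SE 0.87), and the complement genes C1QB (−2.29) and C1QC (−2.20). CBLN2, at a summer median of 0.228 CPM, ranged from −4.04 without bear 1509 to −1.82 without bear 1511, and its call was lost without any one of bears 1305, 1316, 1317, 1511 and 1512 (adjusted p up to 0.141 by edgeR). C1QTNF9, the closest relative of adiponectin in the family, fell by 0.71 (SE 0.20, adjusted p 0.0131) and was lower in 6 of 6 bears, with an adjusted p of 0.0555 without bears 1509 and 1511. C1QTNF5, named after its value was seen, had a log2 fold change of −0.26 (SE 0.25, adjusted p 0.426). The 2 genes that rose became 1 without bear 1316 or bear 1511 and 3 without bear 1305, the 9 that fell became 7 to 8 with any one bear left out, and a replicate block by bear gave 3 rising and 11 falling.

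Of 20 genes of adiponectin receptor signalling, 7 rose and 3 fell, with a median log2 fold change of 0.03. By the same call, 19.6% of all genes tested rose and 19.9% fell. With any one bear left out, 5 to 6 genes of this list rose and 3 to 4 fell. APPL1, the adaptor that binds both receptors, rose by 0.51 (SE 0.12, adjusted p 0.00467). The catalytic subunits of AMPK rose too, PRKAA1 by 0.41 (SE 0.09) and PRKAA2 by 0.46 (SE 0.15). The call of PRKAA2 was lost with library totals and without bear 1305, 1316 or 1509 (adjusted p up to 0.0722 by edgeR). The deacetylase SIRT1 rose by 0.86 and CPT1B, an enzyme of fatty acid entry into mitochondria, by 0.64. The acetyl-CoA carboxylases fell, ACACA with −1.89 (SE 0.55) and ACACB with −1.04 (SE 0.19), as did PPARA with −1.05 (SE 0.18). The size for ACACA rested on summer bear 1316: its log2 fold change was −0.75 without that bear and −1.19 with a replicate block, and it was not called by limma voom or by DESeq2 with a replicate block (adjusted p up to 0.0654).

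Of the other 8 tested genes of the PAQR family, to which the receptors belong, MMD rose (0.85, SE 0.20) while PAQR4 and PAQR9 fell (−2.17, SE 0.29, and −1.59, SE 0.34), with a median of −0.33. Over all genes tested, 39.5% were called, 19.6% higher and 19.9% lower. The number of rising PAQR genes was 2 without bear 1509. Of 13 genes that fold, modify and release adiponectin and collagen-like proteins, 9 fell and 1 rose, with a median of −0.70. The collagen chaperone SERPINH1 (−2.17, SE 0.17), the lysyl hydroxylases PLOD1 (−1.67) and PLOD2 (−1.60), the prolyl hydroxylase subunit P4HA2 (−1.37) and the disulfide isomerase PDIA4 (−0.94) led the falls. The rising genes of this list were 2 without bear 1511 or without bear 1512. Of 13 other cadherins tested, 5 fell and 8 were not called, with a median of −0.77, where 39.5% of all genes tested were called. Those that fell were PCDH1 (−1.28), CDH6 (−1.26), the endothelial cadherin CDH5 (−1.03), CDH23 (−0.84) and PCDH18 (−0.77), where CDH13 stood at 0.24. The call of PCDH18 was lost without bear 1305, 1317 or 1512 (adjusted p up to 0.0935 by edgeR). CDH11 (−1.04, SE 0.45), not called in the main fit, was called lower in 6 of 15 alternatives. With any one bear left out, 4 to 7 of these cadherins fell.

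**Figure D5:**
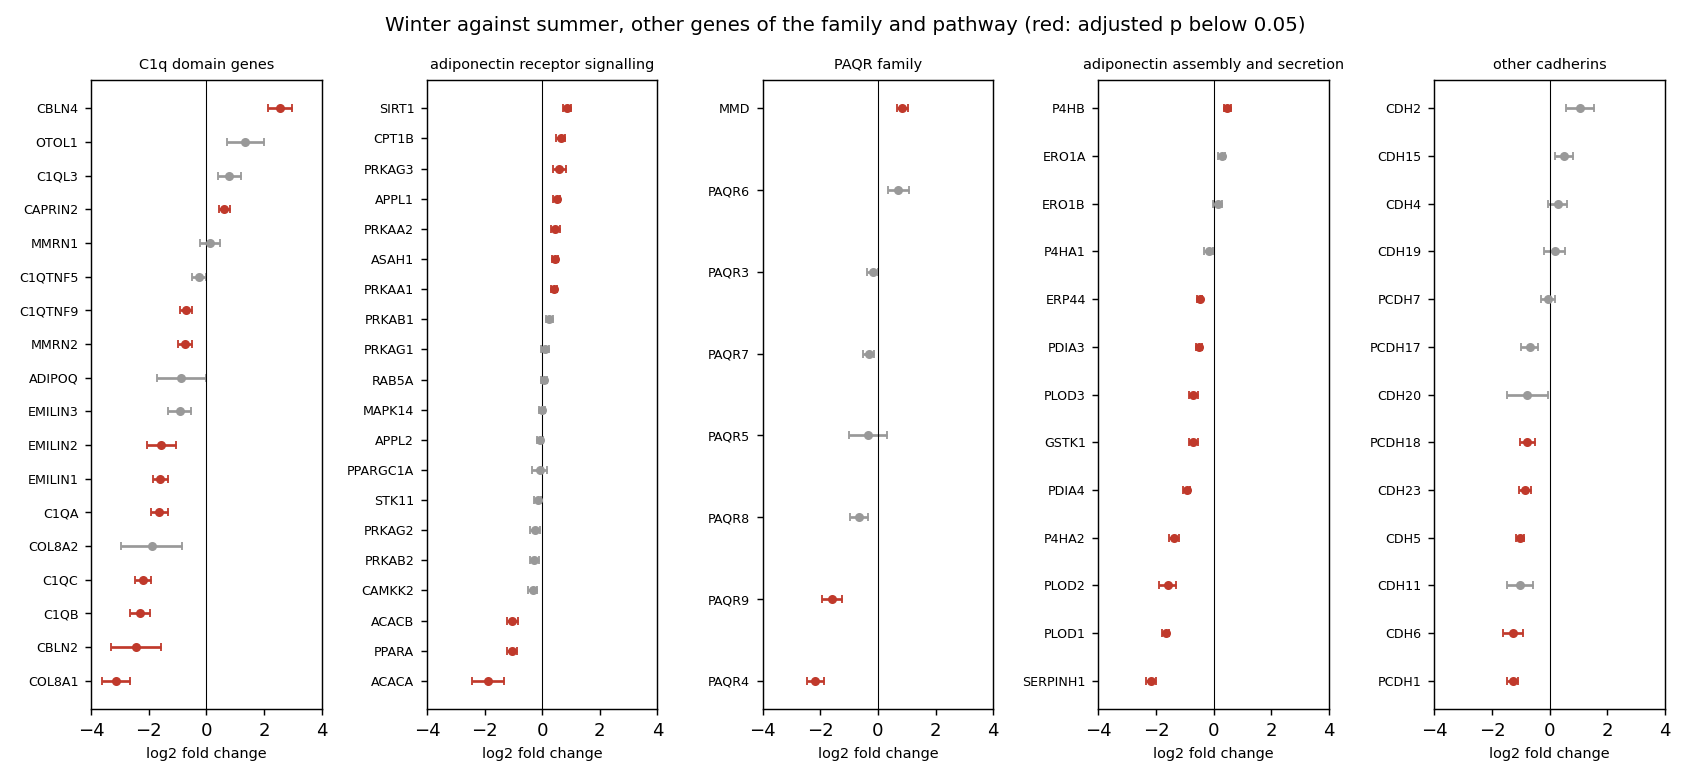
Fitted log2 fold change of winter over summer ± SE (x axis) for the tested genes of 5 lists, in red where edgeR's adjusted p was below 0.05 and in grey otherwise. The list of folding and secretion genes lies mostly below 0, with SERPINH1 lowest at −2.17, and the signalling list lies on both sides with a median of 0.03.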

How the data were processed

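The authors prepared stranded mRNA libraries, mapped the single-end reads with TopHat2 2.1.1 to ASM358476v1, a brown bear genome assembly (Bowtie2 is 2.2.9 in the submitters' processing notes, and the study's methods name another version), counted them on genes with featureCounts 1.6.2 using strand, and deposited raw counts, with no normalization. How reads shared by near-identical genes were treated is not given in the sources used here. No library was left out.

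In R 4.3.3, genes with at least 30 reads over the 12 libraries were kept and scaled by TMM. Winter was compared with summer with edgeR 4.0.16 (glmQLFit and glmQLFTest, season as the only term, Benjamini-Hochberg adjustment over 17290 genes, call at 0.05). SE is the log2 fold change divided by the square root of F. Levels are TMM-scaled CPM, and log2 CPM used a prior count of 2. Alternatives were RLE scaling, library totals, no filter, filterByExpr, DESeq2 1.42.0, limma voom 3.58.1, the bear as a replicate block, each bear left out, a stricter threshold and, chosen after the data were seen, bears 1509 and 1511 left out together. By the study's methods each bear was biopsied in both seasons. For the 6 pairs of libraries from 1 bear, deviations around the season mean had a Pearson correlation of 0.0903 to 0.344 (median 0.237). For 30 pairs of different bears it was −0.214 to 0.142 (median −0.0634), so the ranges overlapped. Libraries of a season differed by a chi-square per gene of at least 42.3, so none is a copy of another.

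The members and the gene lists were chosen with earlier results of these data known. The named genes were the members, ADIPOQ, C1QTNF9, APPL1, PRKAA1 and PRKAA2, up to 5 called genes of largest change in each of 5 lists, and the 3 genes most like each of C1QTNF3, C1QTNF4, ADIPOR1 and CDH13. C1QTNF5, COL1A1 and the neighbouring genes were added after the data were seen. The fit was tested on simulated data: with 200 of 17290 genes changed in a simulated comparison of winter with summer, edgeR found 93% of 4-fold and 69% of 2-fold changes, and called 10 other genes. The simulated libraries held no differences between bears, and 39.5% of genes were called in the real data. These rates therefore need not hold for the real comparison.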

Additional observations from a re-analysis of the deposited data

Results flagged for a closer look

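In each season the highest and lowest of the 6 libraries were compared with the nearest of the others, for the 55 genes with reads that the text names or lists. A gap above 0.625 of the season's range marked a library, and 9 of 110 groups were marked, where chance marks about 1 in 20. Of the members, C1QTNF7 was marked in winter bear 1512 (gap 0.680 of the range, −0.32 log2 CPM against 0.68 to 1.14 in the others) and ADIPOR2 in summer bear 1317 (0.761, 8.58 against 7.73 to 7.93). Summer bear 1316 was marked for 3 genes: ADIPOQ (0.660, 8.44 against 3.72 to 5.33), ACACA (0.694, 7.53 against 3.67 to 4.85) and CDH11 (0.641, 2.099 against 3.18 to 3.79). CPT1B was marked in summer bear 1317 (0.627, 8.33 against 7.75 to 7.96) and in winter bear 1509 (0.653, 7.98 against 8.50 to 8.78). CBLN2 was marked in winter bear 1509 (0.632, −1.46 against −3.53 to −2.77). FAM180B, the neighbour of C1QTNF4, was marked in summer bear 1511 (0.818, 4.62 against 2.79 to 3.13).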

How the results depend on the processing

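The direction of each of the 9 detected members held in all 15 alternatives. C1QTNF3 ranged from −5.72, without bears 1509 and 1511 together, to −3.24, and C1QTNF4 from 2.94 to 3.19. With the bear as a replicate block, 3392 genes were called higher and 3663 lower, and the members called were again 2 higher and 5 lower. The stricter threshold (adjusted p below 0.01 and a fold limit) called 2077 higher and 2077 lower. The 2 members called higher became 1 with library totals and without bears 1509 and 1511 together, and 1 to 2 over the fits that left out a bear each. The 2 rising C1q domain genes became 1 with library totals and without both bears, and 1 to 3 with a bear left out. Rising PAQR genes became 2 without both bears (1 to 2 with a bear left out), and rising assembly genes 2 with DESeq2 (1 to 2). Leaving out a bear each called 2541 to 3195 genes higher and 2715 to 3300 lower. ADIPOQ changed sign to 0.00116 with the replicate block, 0.0235 with DESeq2 and a replicate block, and ranged from −1.92 to 0.97 with a bear left out (0.97 without bear 1316). The causes of these moves were not tested. Depth limits the winter levels of C1QTNF2 and C1QTNF6 (LOC113249916), which rest on 4 to 22 and 5 to 47 reads per library. C1QTNF12 had no reads, and the reason was not tested.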

Other observations

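The genes next to C1QTNF4 and C1QTNF3 in the RefSeq table of assembly UrsArc2.0, looked up after the data were seen, did not all share their direction. C1QTNF4 was higher in winter, while FAM180B fell by 2.27 on the log2 scale (SE 0.38, edgeR adjusted p 0.000423) and MTCH2, whose span overlaps that of C1QTNF4 in that assembly, fell by 0.90 (SE 0.11, edgeR adjusted p 4.22e-05), each in 6 of 6 bears. C1QTNF3 was lower in winter, as was AMACR, which fell by 0.84 (SE 0.15, edgeR adjusted p 0.000656), while RAI14 rose by 0.83 (SE 0.16, edgeR adjusted p 0.00103).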
